A study of Mus musculus with 162 samples.

Results

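Chemokines are small secreted proteins that steer the movement of cells, and their receptors are G protein-coupled receptors on the cells that follow them. The genes described here are those whose symbol is Ccl, Cxcl, Ccr or Cxcr with a number and at most 1 further letter, together with Cx3cl1, Cx3cr1 and Xcr1, apart from 2 receptor genes that were not analysed. They are 54 of the 53686 genes in the count table: 38 ligands and 16 receptors. The study followed gene expression by mRNA sequencing in 9 organs of male C57Bl/6J mice aged 8 to 9 weeks through a short fast. All mice were killed at the same hour of the day, 3 of them fed without limit (0 h) and 3 each after 2, 8, 12, 18 and 22 h without food. Every mouse gave all 9 organs: olfactory bulb (OB), telencephalon and diencephalon (BRN), cerebellum (CBL), midbrain and hindbrain without the cerebellum (BST), stomach (STM), liver (LIV), interscapular brown fat (iBAT), perigonadal white fat (pgWAT) and posterior subcutaneous white fat (psWAT).

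CC and CXC chemokines are named for the spacing of conserved cysteines, and the CX3C ligand Cx3cl1 and the receptor of the C family, Xcr1, complete the set. Some ligands are made all the time and place lymphocytes within lymphoid organs, while others are induced in inflammation and call in monocytes, neutrophils, eosinophils or effector T cells. Adipose tissue, liver and brain each hold resident macrophages, Kupffer cells or microglia that carry such receptors. In samples of whole tissue, fewer cells of a type and less RNA per cell cannot be told apart.

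Among the libraries were 5 with low totals that the study left out and that enter no comparison here, namely BRN 8 h replicate 3, BRN 18 h replicate 1, STM 12 h replicate 3, iBAT 22 h replicate 1 and psWAT 22 h replicate 2. The retained libraries held 3045845 to 27801717 counts, so that 3 counts, taken as the floor, equalled 0.108 to 0.985 CPM (counts scaled to a common library total). Median totals by organ lay between 6880700.0 in psWAT and 11630035 in OB. Levels are given as CPM from the raw count over the library's total. Fold changes come from edgeR fits with TMM factors and can differ from ratios of these medians.

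Some retained libraries carried transcripts that mark other tissues, and this is given first because several results touch them. In pgWAT the summed CPM of 4 epididymal markers reached 22308 in 22 h replicate 2, 8017 in 18 h replicate 3 and 2898 in 2 h replicate 2. In the 15 others it was 540.4 at most. The summed CPM of 4 hepatocyte markers was 4089 in pgWAT 18 h replicate 2 and 346 in OB 0 h replicate 3. In psWAT, 4 skeletal muscle markers summed to 28029.7 CPM in 2 h replicate 2 against a median of 395, and 4 cerebellar neuron markers to 2694 in 12 h replicate 3. Of the iBAT libraries, 22 h replicate 2 held the fewest counts (3156101), the highest sum of white adipocyte markers (21429) and the lowest of endothelial markers (176).

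Each organ had its own leading chemokines, and they were compared between genes per length, as mean CPM per kb of exons with the SD over libraries. The neuronal membrane-bound ligand Cx3cl1 led in OB (160.995 ± 15.5, n = 18) and BRN (139.7 ± 27.8, n = 16) and had 43.4 ± 3.07 in BST (n = 18). Cxcl14, a chemokine of epithelia and neurons, came next in OB and BRN with 42.8 ± 4.92 and 48.3 ± 6.55 CPM per kb, and in BST it had 40.4 ± 2.30, within about 1 SD of Cx3cl1. In CBL the order was Cxcl14 (28.1 ± 4.62), Cx3cl1 (18.2 ± 2.50) and Ccl27a (11.3 ± 2.33), a ligand best known from skin. The third gene was the microglial receptor Cx3cr1 in OB (9.63 ± 0.909), Ccl27a in BRN (22.6 ± 5.01) and Cxcl12 in BST (5.90 ± 1.24).

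Outside the brain the leading ligands were others. The mucosal chemokine Cxcl17 led in STM (51.5 ± 24.4 CPM per kb, n = 17), before the eotaxin Ccl11 (15.3 ± 3.16) and Cxcl12 (6.84 ± 1.49). Cxcl12, which stromal and endothelial cells make to hold cells that carry Cxcr4, led in LIV (37.6 ± 8.84, n = 18), where Ccl9 (14.2 ± 4.06) and Cxcl1 (10.7 ± 11.9) followed. In iBAT the means of Ccl11 (16.1 ± 5.43, n = 17), Cxcl12 (12.7 ± 3.50) and Cxcl14 (9.05 ± 2.95) lay within about 1 SD of their neighbours. pgWAT was led by 3 ligands of monocytes, macrophages and eosinophils, Ccl6 (108 ± 37.9, n = 18), Ccl11 (71.2 ± 21.05) and Ccl9 (35.5 ± 12.2). In psWAT the T cell chemokine Ccl5 had 285 ± 165.2 CPM per kb (n = 17), Ccl8 131.3 ± 128 and the B cell chemokine Cxcl13 102.8 ± 70.01. The mean of Ccl8 differed from each of the others by less than the larger SD. Those of Ccl5 and Cxcl13 differed by more than either SD.

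**Figure D1:**
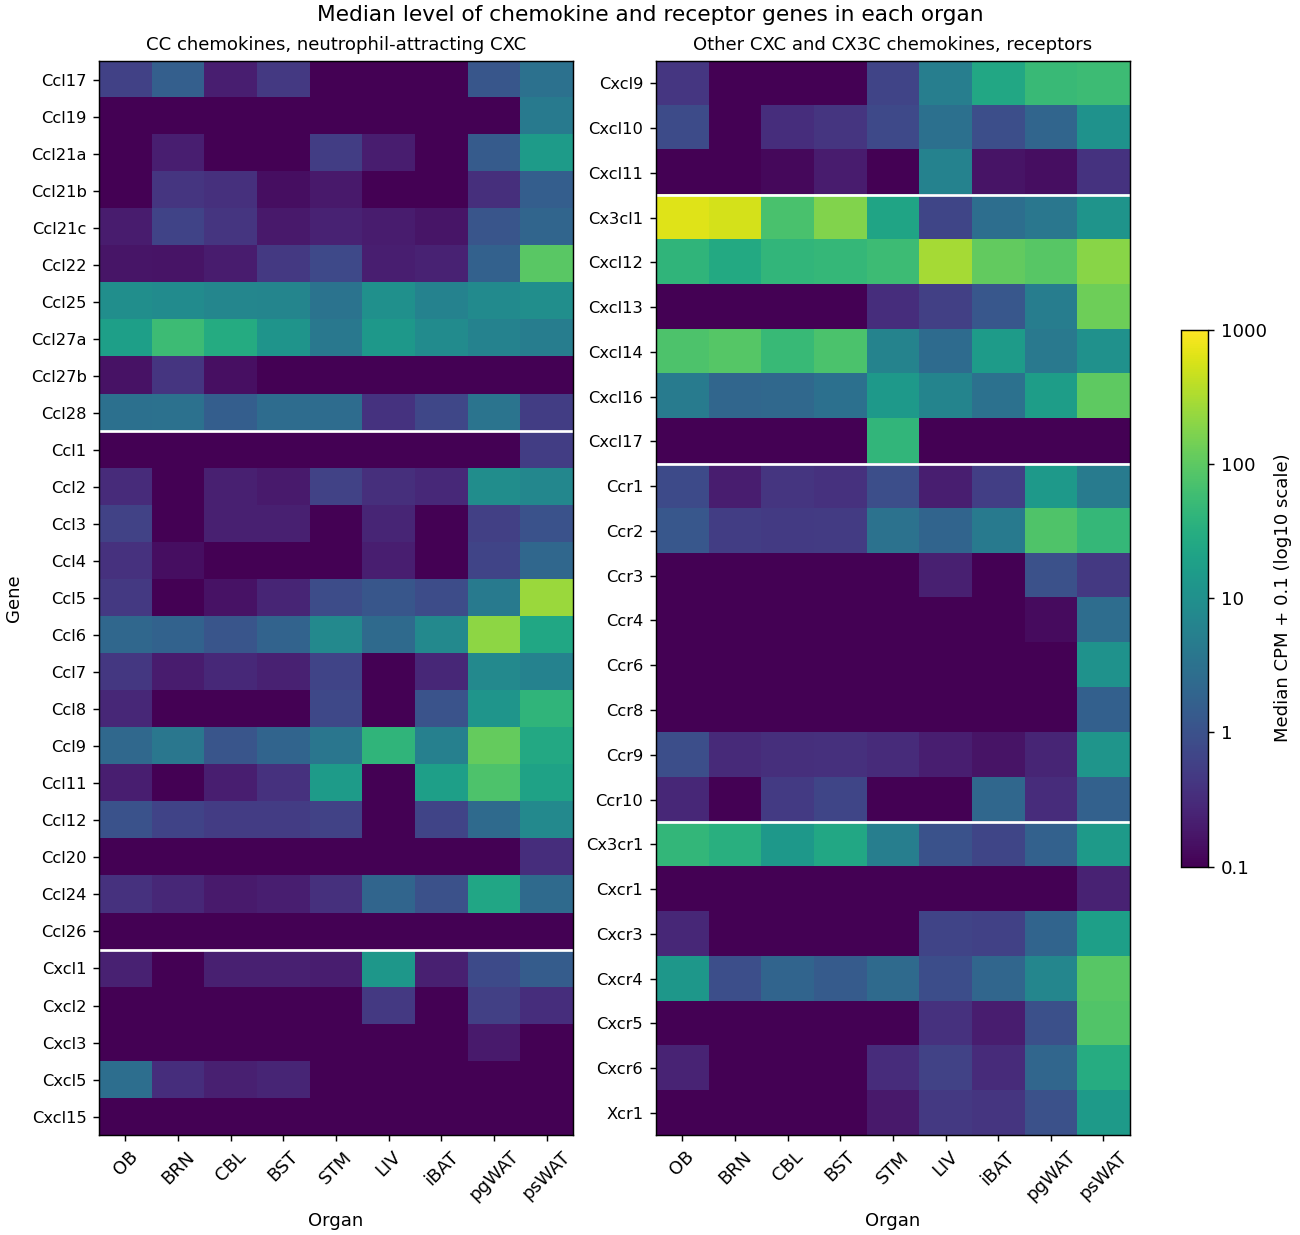
Median level of genes of the family in the 9 organs as colour, on a log10 scale of CPM + 0.1 (n = 16 to 18 libraries per organ). The psWAT column is the brightest for most lymphocyte ligands and receptors, Cx3cl1 and Cxcl14 are bright in the brain regions, and Cxcl12 is bright in LIV.

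To ask in which organ each gene stands highest, all organs were fitted together with mouse as a block, and a gene was called highest in an organ when it lay above each of the other 8 by a log2 fold change over 1 with the largest of the 8 p-values under 0.05 after adjustment over 22113 genes. Of the 54 genes 48 were measured well enough for this test, and 34 were highest in 1 organ. psWAT held 21 of them (43.8% of the 48 genes, where 6.318% of all genes were highest in psWAT), 9 of them receptors. pgWAT held 6 (all genes: 2.397%), LIV 3 (6.765%), and OB (1.538%), BRN (1.556%), STM (5.160%) and iBAT (3.107%) 1 each. None was called by edgeR in CBL (all genes: 1.474%) or BST (1.587%), no gene of the family had its highest fitted level there, and DESeq2 called 0 in both. DESeq2 called 30 genes in all, without Ccl20, Ccl28, Ccr3 and Ccr8. Above every library of the next organ stood 9 of the 34. The filter on low counts took libraries of any organ. Genes such as Ccl19, Ccl20, Ccr4, Ccr6 and Ccr8, with at most 0.745 CPM in the next organ, passed it through psWAT libraries. Another organ could hardly be called for them, yet they count in the 21 and the 43.8%. The share of all genes rests on the same filter.

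Several ligands that place lymphocytes and dendritic cells in lymphoid tissue were highest in psWAT. Ccl22, which attracts T cells through Ccr4, had 4.25 to 178 CPM (median 94.4) in the 17 psWAT libraries and 0.295 to 7.43 (median 1.67) in the 18 of pgWAT (log2 fold change 5.32, adjusted p 4.37e-50). Cxcl13, which draws B cells into follicles, had 7.81 to 270.3 CPM (median 132.2) in the 17 psWAT libraries and 1.37 to 33.7 (median 4.88) in the 18 of pgWAT (log2 fold change 3.66, adjusted p 3.70e-21, and 3.01 without all replicates 2). In both genes the lower end of the psWAT range reached into that of pgWAT. Ccl21a, made by stromal and lymphatic endothelial cells to guide T cells and dendritic cells, had 0.340 to 36.3 CPM (median 15.5) in the 17 psWAT libraries and 0.238 to 3.68 (median 1.31) in the 18 of pgWAT (log2 fold change 2.89, adjusted p 2.15e-23). Its near copy Ccl21b had 0 to 4.29 CPM (median 1.46) in the 17 psWAT libraries and 0 to 0.879 (median 0.246) in the 18 of pgWAT (log2 fold change 1.64, adjusted p 2.42e-06), and reads that fit several Ccl21 copies are lost in unique mapping. The copy Ccl21c (log2 fold change over pgWAT 0.74) and the T cell ligand Ccl17 (over BRN 0.76) were not called. Ccl19 acts on the same cells as Ccl21a and had 1.17 to 17.0 CPM in psWAT (median 4.27), above every library of LIV (0 to 0.238, all at 3 counts or fewer).

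Inflammatory CC ligands of psWAT were led by Ccl5. Its levels were 38.3 to 493 CPM (median 251) in the 17 psWAT libraries and 2.38 to 5.75 (median 4.23) in the 18 of pgWAT (log2 fold change 5.71, adjusted p 1.20e-55), and all psWAT libraries lay above all of pgWAT. Ccl8 and Ccl12, which act on monocytes and T cells, had 10.5 to 230 CPM (median 41.5) and 1.02 to 56.9 CPM (median 7.45) in psWAT, against 3.93 to 28.7 and 0.553 to 5.11 in pgWAT, so that both overlapped. Ccl4, which attracts monocytes and T cells, had 0.170 to 3.64 CPM (median 2.098) in the 17 psWAT libraries and 0.258 to 1.09 (median 0.569) in the 18 of pgWAT (log2 fold change 1.59, adjusted p 3.01e-07). Ccl20, the ligand of Ccr6, was scarce, with 0 to 2.62 CPM (median 0.233) in psWAT and 0 to 0.745 in STM. The call of Ccl20 was lost with DESeq2 (adjusted p 1.0000), without all replicates 2 (0.4687) and without all replicates 3 (0.2084), the range being 0.0122 to 1.0000 over 8 alternatives.

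2 further CXC ligands completed the ligands highest in psWAT. Cxcl16, a membrane-bound ligand of Cxcr6, had 30.7 to 213 CPM (median 101.6) in the 17 psWAT libraries and 8.52 to 25.5 (median 14.7) in the 17 of STM (log2 fold change 2.15, adjusted p 1.33e-24), with no overlap. Cxcl10, induced by interferon and bound by Cxcr3, had 3.74 to 41.8 CPM (median 10.7) in the 17 psWAT libraries and 1.499 to 4.89 (median 2.93) in the 18 of LIV (log2 fold change 1.15, adjusted p 1.57e-04), with overlap.

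Several receptors of lymphocytes and dendritic cells were highest in the same depot. The follicular B cell receptor Cxcr5 had 4.09 to 151.6 CPM (median 81.7) in the 17 psWAT libraries and 0 to 1.39 (median 0.845) in the 18 of pgWAT (log2 fold change 6.12, adjusted p 1.95e-41), and the T cell receptors Cxcr6 and Cxcr3 had 7.30 to 55.1 CPM (median 30.1) and 1.87 to 31.1 CPM (median 17.9) in psWAT against 0.924 to 3.97 and 0.242 to 2.68 in pgWAT. Neither Cxcr5 nor Cxcr6 overlapped between depots, while Cxcr3 did. Cxcr4, the broadly expressed receptor of Cxcl12, had 12.4 to 185 CPM (median 91.0) in the 17 psWAT libraries and 11.4 to 17.2 (median 12.97) in the 18 of OB (log2 fold change 2.50, adjusted p 5.98e-22). Xcr1, which marks cross-presenting dendritic cells, had 2.21 to 25.7 CPM (median 15.3) in the 17 psWAT libraries and 0 to 2.71 (median 0.868) in the 18 of pgWAT (log2 fold change 3.42, adjusted p 1.75e-25), and Ccr9, a gut and thymus homing receptor, had 0.629 to 31.9 CPM (median 12.03) in the 17 psWAT libraries and 0.191 to 1.73 (median 0.812) in the 18 of OB (log2 fold change 3.86, adjusted p 2.14e-33). The lower ends of all 3 psWAT ranges overlapped with the next organ. Ccr6, found on B cells and a subset of T cells, had 0 to 57.2 CPM (median 10.7) in psWAT and at most 0.503 in pgWAT. Ccr4 (0 to 8.30 CPM, median 2.56) and Ccr8 (0 to 3.43 CPM, median 1.59), both carried by regulatory T cells, reached 0.637 and 0.375 at most in pgWAT. No fold change is given for Ccr4, Ccr6 and Ccr8, whose pgWAT libraries held 4 counts or fewer. Ccr8 lost its call with DESeq2 (adjusted p 0.4475, range 1.20e-11 to 0.4475 over 9 alternatives).

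Low values of these 21 genes in psWAT fell on few libraries. The library 8 h replicate 1 had the lowest value of 15 of them, 3 of these tied at 0 with other libraries, and 12 h replicate 3 and 18 h replicate 3 had that of 3 each. All 6 markers of B cells were measured in psWAT, and they summed to 111.6 to 3957 CPM (median 2302). By library this sum was 881, 1579 and 3957 CPM at 0 h, 3083, 2302 and 3409 at 2 h, 111.6, 2399 and 879.5 at 8 h, 2748, 2747 and 184 at 12 h, 3443, 2109 and 788 at 18 h, and 3586 and 547 at 22 h. The lowest sums belonged to 8 h replicate 1 and 12 h replicate 3, the libraries with the lowest and the third lowest Cxcl13. The 6 markers of T cells summed to 179 to 1608 CPM (median 843), led by Lck (median 285 CPM), and were 439, 843 and 1024 CPM at 0 h, 1478, 1027 and 1139 at 2 h, 179, 803 and 501 at 8 h, 1454, 1608 and 379 at 12 h, 1028, 823 and 687 at 18 h, and 1469 and 803 at 22 h. In pgWAT the B and T cell sums were 7.02 to 23.4 CPM (median 15.1) and 5.71 to 10.4 CPM (median 7.34), below every psWAT library, and in iBAT 1.02 to 5.01 CPM (median 3.10) and 0.925 to 23.4 CPM (median 2.15). Dendritic cell markers (4 of 4 tested) summed to 30.1 to 181 CPM (median 157.3) in psWAT and 10.8 to 37.1 CPM (median 25.5) in pgWAT, macrophage markers (6 of 6) to 219.6 to 566 CPM (median 307) and 207 to 956 CPM (median 724). No marker of these lists was at 0 in all psWAT libraries. White adipocyte markers in psWAT summed to 372 to 23122 CPM (median 3059.8), led by Fabp4 (median 2392 CPM), with the highest sum in 8 h replicate 1. The part of lymphocyte content in the levels of the 21 genes was not tested.

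**Figure D2:**
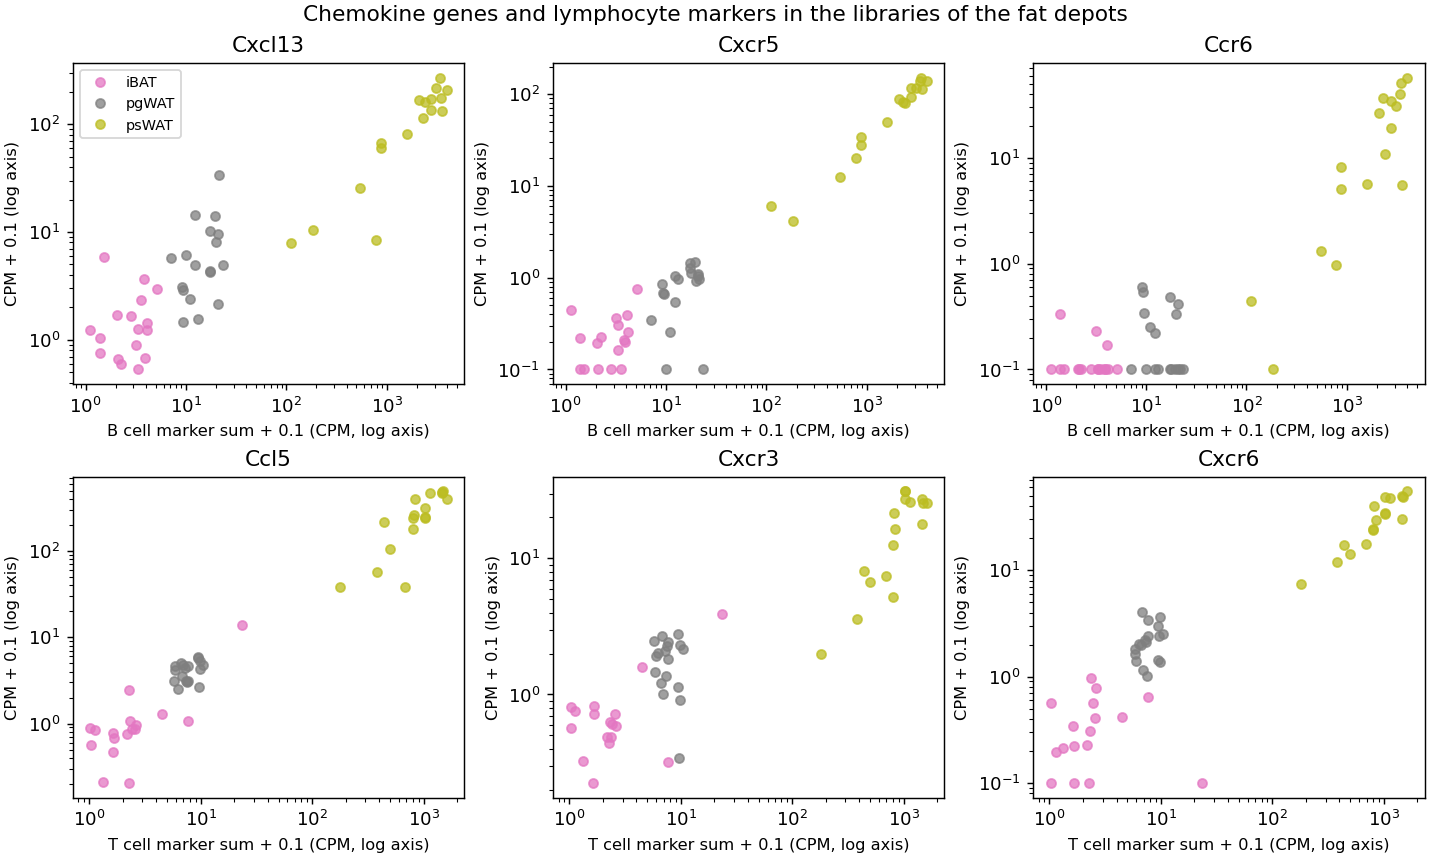
Level of Cxcl13, Cxcr5 and Ccr6 against the summed B cell markers, and of Ccl5, Cxcr3 and Cxcr6 against the summed T cell markers, in CPM + 0.1 on log axes, with 1 point per library of iBAT (n = 17), pgWAT (n = 18) and psWAT (n = 17). The psWAT points lie at the upper right, and within psWAT the lowest points of Cxcl13 and Cxcr5 have low B cell sums.

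pgWAT stood highest for 3 ligands and 2 receptors that act on macrophages, monocytes and eosinophils, and for an epithelial ligand. Ccl6, a macrophage chemokine of rodents, had 32.8 to 317 CPM (median 209) in the 18 pgWAT libraries and 8.30 to 85.1 (median 24.2) in the 17 of psWAT (log2 fold change 2.87, adjusted p 1.38e-20), and the eotaxins Ccl11 and Ccl24 had 15.1 to 116.5 CPM (median 76.1) and 4.84 to 39.9 CPM (median 23.4). The next organs were iBAT for Ccl11 (9.25 to 29.2 CPM, log2 fold change 1.60, adjusted p 3.80e-14) and LIV for Ccl24 (0.833 to 5.48 CPM, log2 fold change 2.56, adjusted p 3.85e-18). In all 3 the lowest pgWAT library was 22 h replicate 2, with the most epididymal transcripts, and it fell inside the range of the next organ. The receptor Ccr1 had 4.60 to 19.7 CPM (median 14.6) in the 18 pgWAT libraries and 0.732 to 15.9 (median 4.43) in the 17 of psWAT (log2 fold change 1.81, adjusted p 1.55e-11), and the eosinophil receptor Ccr3 had 0 to 4.496 CPM (median 0.888) in the 18 pgWAT libraries and 0 to 1.12 (median 0.354) in the 17 of psWAT (log2 fold change 1.71, adjusted p 2.74e-04), a call lost with DESeq2 (adjusted p 0.1193, range 3.52e-05 to 0.1193 over 9 alternatives). Macrophage markers in pgWAT (6 of 6 tested) were led by C1qa (median 202 CPM), and their part in these levels was not tested.

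Ccl28, a ligand of mucosal and secretory epithelia, was uneven among pgWAT libraries. It had 36.7, 13.2 and 1.19 CPM at 0 h, 2.07, 13.97 and 7.81 at 2 h, 4.87, 3.54 and 0.596 at 8 h, 0, 26.4 and 11.2 at 12 h, 0.173, 0.796 and 0.605 at 18 h, and 0.885, 19.005 and 3.10 at 22 h. The highest values came from 0 h replicate 1, 12 h replicate 2 and 22 h replicate 2, and 12 h replicate 1 had none. In STM, the next organ, it ran from 0 to 4.90 CPM (log2 fold change 1.09, adjusted p 0.0123). The call was lost with DESeq2 (adjusted p 0.0520), without all replicates 2 (log2 fold change 0.15, adjusted p 1.0000) and, in an alternative chosen after seeing the data, without the 3 libraries with epididymal transcripts (log2 fold change 0.92, adjusted p 0.0768), in a range of 0.0016 to 1.0000 over 9 alternatives.

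In LIV, 3 CXC ligands stood highest. Cxcl1, a neutrophil attractant, had 4.79 to 81.5 CPM (median 12.8) in the 18 LIV libraries and 0 to 3.54 (median 1.38) in the 17 of psWAT (log2 fold change 4.76, adjusted p 8.79e-43), and Cxcl11, an interferon-induced ligand of Cxcr3, 3.41 to 23.98 CPM (median 5.92) in the 18 LIV libraries and 0 to 0.976 (median 0.283) in the 17 of psWAT (log2 fold change 5.48, adjusted p 9.22e-50). Neither overlapped with psWAT, where Cxcl11 had few counts. The annotation lists Cxcl11 as a polymorphic pseudogene, with 41.7% of its exon bases shared with a gene on the other strand. Cxcl12 had 221 to 488 CPM (median 285) in the 18 LIV libraries and 69.8 to 404 (median 194) in the 17 of psWAT (log2 fold change 1.53, adjusted p 1.47e-22), and the ranges overlapped.

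4 organs had a highest member of their own. Cxcl5, a neutrophil attractant, had 1.14 to 3.73 CPM (median 2.65) in the 18 OB libraries and 0 to 0.857 (median 0.228) in the 16 of BRN (log2 fold change 2.59, adjusted p 1.36e-09), with no overlap. Ccl27a had 34.3 to 72.1 CPM (median 54.5) in the 16 BRN libraries and 17.5 to 37.4 (median 28.4) in the 18 of CBL (log2 fold change 1.12, adjusted p 4.07e-09), overlapping at the edge. Cxcl17 had 8.46 to 77.5 CPM (median 42.4) in the 17 STM libraries and 0 to 6.16 (median 0) in the 17 of psWAT (adjusted p 7.60e-32), the lowest STM library stood above the highest of psWAT, and no fold change is given over a median of 0. Ccr10, the receptor of Ccl27a and Ccl28, had 1.27 to 3.67 CPM (median 2.04) in the 17 iBAT libraries and 0.440 to 3.004 (median 1.63) in the 17 of psWAT (log2 fold change 1.15, adjusted p 1.14e-04), the ranges overlapped, and without all replicates 1 the log2 fold change was 0.98 and the call was lost. Beside the 34, the other 14 genes in the test had no organ that passed, among them Cx3cl1 and Cx3cr1 (OB and BRN alike), Ccl25 (log2 fold change of LIV over iBAT 0.82), Ccr2 (pgWAT over psWAT 0.90) and Cxcl9 (psWAT over pgWAT 0.02).

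Ligands and their receptors did not always share an organ. In medians of CPM, compared for each gene between organs only, Cxcl12 was highest in LIV (285), while Cxcr4 had 0.791 there and 91.0 in psWAT. The scavenger of Cxcl12, Ackr3, had 26.6 to 97.9 CPM (median 70.7) in pgWAT, 27.9 to 83.5 CPM (median 49.4) in iBAT and 0 to 1.07 CPM (median 0.450) in LIV. Cx3cl1 and Cx3cr1 were both high in OB (647 and 43.7 CPM) and BRN (543 and 33.7), and Cx3cl1 was low in LIV (0.588). The microglial markers (5 of 5 tested) summed to 308 to 385 CPM (median 372) in OB, 146.7 to 213 CPM (median 181) in BRN, 130.1 to 207 CPM (median 167.4) in BST and 79.1 to 117.1 CPM (median 94.5) in CBL, and their part in the Cx3cr1 level was not tested.

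Some ligands of lymphocytes and their receptors were both measured in psWAT. There the medians were 132.2 CPM for Cxcl13 and 81.7 for Cxcr5, 101.6 for Cxcl16 and 30.1 for Cxcr6, 94.4 for Ccl22, 3.03 for Ccl17 and 2.56 for their receptor Ccr4, and 10.7 for Ccr6, while that of its ligand Ccl20, 0.233, lay under the floor. Xcl1, the ligand of Xcr1, had 0.786 to 8.72 CPM (median 5.10) in psWAT and medians of 0.374 CPM or less elsewhere. Of the Cxcr3 ligands, Cxcl9 was high in psWAT (55.03), pgWAT (51.3) and iBAT (24.6), Cxcl10 in psWAT (10.7) and Cxcl11 in LIV (5.92), while Cxcr3 itself had 17.9 in psWAT and 1.85 or less elsewhere.

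Pairs of monocytes, macrophages and eosinophils were spread over both white depots. The medians in pgWAT and psWAT were 9.10 and 6.90 CPM for Ccl2, 7.65 and 5.73 for Ccl7, 2.29 and 7.45 for Ccl12, and 78.4 and 46.5 for their receptor Ccr2. Ccl3, Ccl4 and Ccl5 had 0.481, 0.569 and 4.23 in pgWAT and 0.910, 2.098 and 251 in psWAT, and the receptor Ccr1 had 14.6 in pgWAT and 4.43 in psWAT. The eotaxin receptor Ccr3 had a median of 0.888 in pgWAT, where Ccl11 had 76.1 and Ccl24 23.4. Ccl8 and Ccl1, ligands of Ccr8, had medians of 41.5 and 0.436 in psWAT against 1.59 for the receptor. Ccl25 was measured in every organ (medians 3.22 to 10.1 CPM) and its receptor Ccr9 in psWAT (12.0) and at 0.812 or less in the other organs. Ccr10 had 2.04 in iBAT and 1.63 in psWAT, where Ccl27a had 8.36 and 4.82 and Ccl28 0.611 and 0.425.

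Of the 54 genes 46 were tested over time in at least 1 organ and 9 in all of them. The 8 others were Ccl1, Ccl20, Ccl26, Ccl27b, Cxcl2, Cxcl3, Cxcl15 and Cxcr1. Ccl26 had 3 counts or fewer in every library, and the other 7 had more in 2 to 23 libraries.

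Fasting time was examined inside each organ in 2 ways: a joint test of the 6 times, called where the adjusted p fell under 0.05, and a comparison of the late (18 and 22 h) with the early libraries (0 and 2 h), called where it did so and the log2 fold change exceeded 1 in size. Summed over organs, 12 pairs of gene and organ were called in the joint test (6.28% of those tested, against 7.34% for all genes), 6 in the late comparison (3.14% against 2.51%) and 15 in either. These 15 pairs held 11 genes and lay in OB, LIV, iBAT and STM. No receptor was among them.

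**Figure D3:**
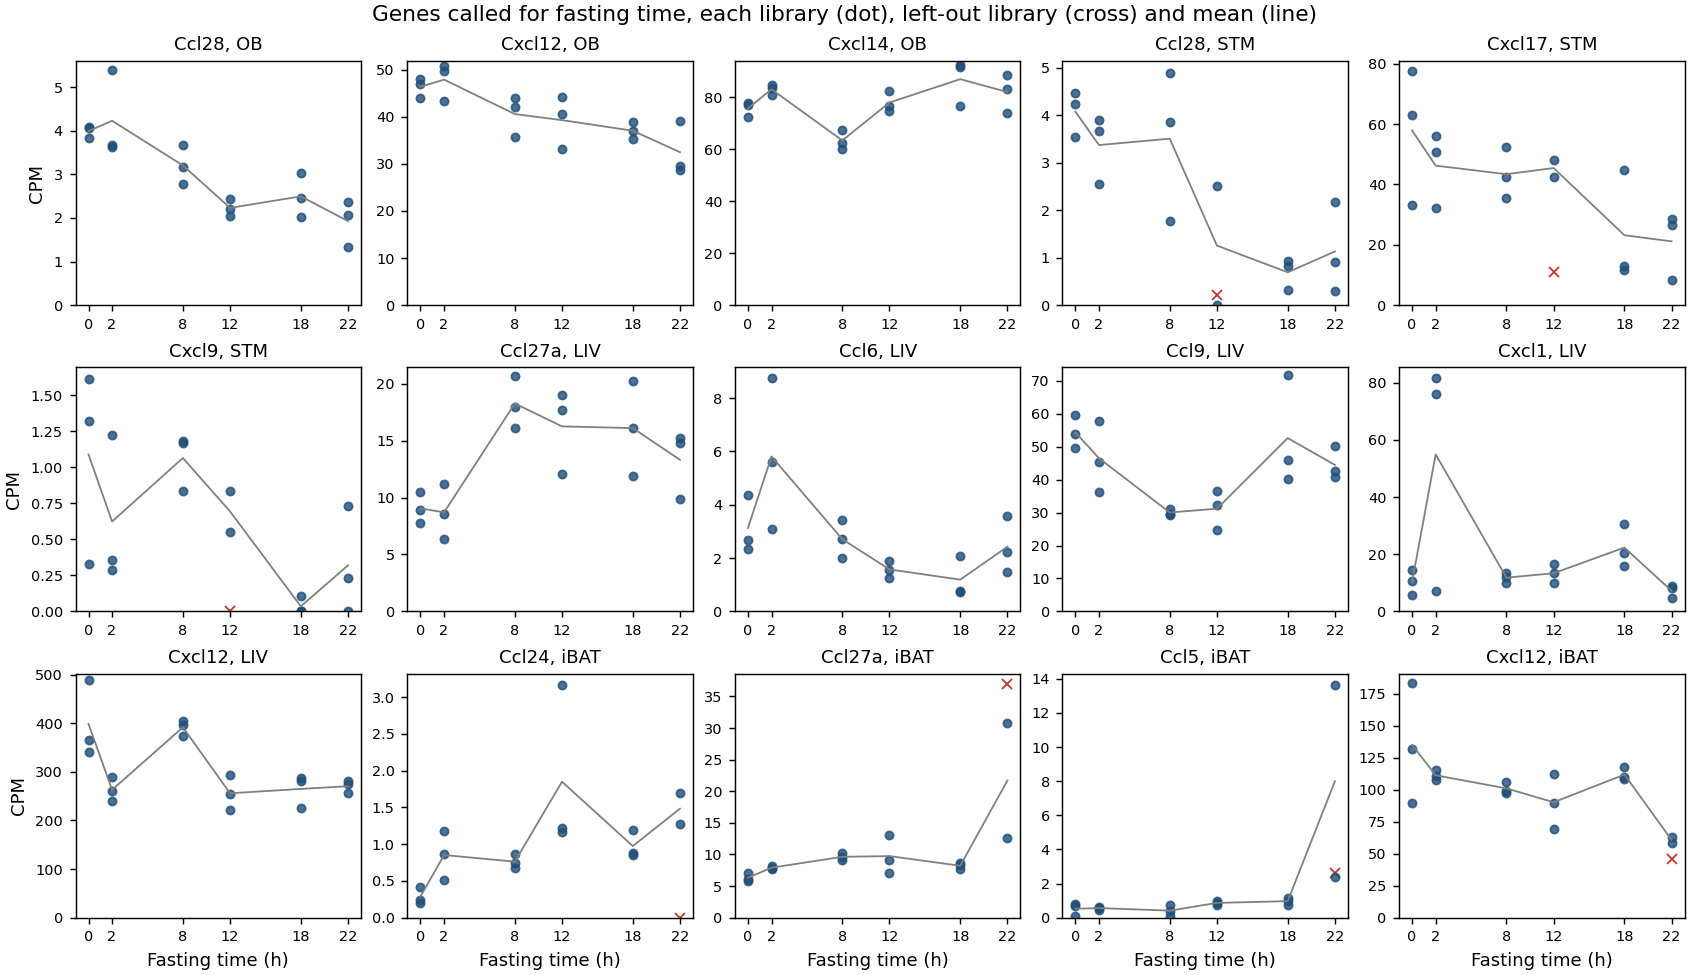
Level in CPM of the 15 called pairs of gene and organ against hours of fasting, with 1 dot per library (2 or 3 per time), a grey line through the means and a red cross for each library left out. The OB and STM panels of Ccl28 fall from early to late, and the iBAT panels of Ccl5 and Ccl27a are high at 22 h in 1 retained library. In the iBAT panel of Ccl27a the cross at 22 h is higher still.

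In OB, Ccl28 and Cxcl12 were lower late than early and Cxcl14 dipped at 8 h. The joint test called 3 of 20 genes (15.0%, where 15.35% of all genes were called), and DESeq2 also called 3. No gene passed the late comparison with its fold threshold by edgeR (all genes: 0.01792% higher and 0.1792% lower), where 4 had an unadjusted p under 0.05 and DESeq2 called 0. Ccl28 had 4.07, 4.08 and 3.83 CPM at 0 h, 5.40, 3.62 and 3.67 at 2 h, 2.78, 3.67 and 3.17 at 8 h, 2.04, 2.21 and 2.44 at 12 h, 2.02, 3.02 and 2.45 at 18 h, and 1.34, 2.07 and 2.37 at 22 h. Every library at 18 and 22 h lay below every library at 0 and 2 h, with 12 h at the late level (log2 fold change -0.86, SE 0.16, adjusted p 0.0107, joint adjusted p 0.0091). Cxcl12 had 48.1, 44.1 and 47.03 CPM at 0 h, 49.7, 43.3 and 50.8 at 2 h, 35.7, 44.03 and 42.1 at 8 h, 40.5, 33.2 and 44.2 at 12 h, 36.9, 38.9 and 35.4 at 18 h, and 28.8, 39.1 and 29.6 at 22 h. Again all 6 late libraries were below all 6 early ones (log2 fold change -0.43, SE 0.08, adjusted p 0.0107, joint adjusted p 0.0177). Cxcl14 had 72.4, 77.2 and 77.6 CPM at 0 h, 80.8, 84.9 and 83.5 at 2 h, 60.02, 67.6 and 62.6 at 8 h, 82.3, 74.9 and 76.8 at 12 h, 92.3, 76.8 and 91.9 at 18 h, and 88.6, 74.1 and 83.4 at 22 h. The 3 libraries at 8 h were below all others, and the late ones overlapped with the early ones (joint adjusted p 0.0126, log2 fold change of 8 h over 0 h -0.25).

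In OB all early libraries were run in lane 3 and all late ones in lane 4, so that lane and time cannot be told apart among these 12. Only the 3 libraries at 8 h spanned both lanes, and a fit with lane separates it from time through them alone. The adjusted p of Ccl28 ran from 6.63e-04 to 0.4789 over 27 alternatives and passed 0.05 with lane as a covariate (0.4789), without all replicates 1 (0.1688) and without all replicates 3 (0.1694). That of Cxcl12 ran from 1.89e-05 to 0.3074 over 27 alternatives and passed 0.05 with lane as a covariate (0.2857), without all replicates 1 (0.2550), without all replicates 3 (0.3074) and without 22 h replicate 3 (0.0565). For Cxcl14 it ran from 3.12e-04 to 0.3170 over 27 alternatives and passed 0.05 without all replicates 1 (0.1951), without all replicates 3 (0.3170), without 8 h replicate 1 (0.0682) and without 8 h replicate 3 (0.0559). Endothelial markers moved in the same direction, with 3 of 4 called in the joint test and 0 in the late comparison. Their sum was 33.3 to 47.1 CPM early (median 39.002) and 20.9 to 31.2 late (median 28.1), led by Pecam1 (median 10.3 CPM), and none was at 0. Their part in the Cxcl12 level was not tested.

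LIV had the largest share of called genes in the joint test, 5 of 17 (29.4%, where 15.98% of all genes were called), and DESeq2 called 6. Cxcl12 alternated between high and low times, the macrophage ligand Ccl6 was low late and Ccl9 at 8 and 12 h, Ccl27a was higher from 8 h on, and Cxcl1 was high at 2 h in 2 mice. In the late comparison Ccl6 fell (0.6489% of all genes were lower), and no gene was called higher by edgeR or DESeq2 (0.7345% of all genes), with 5 at an unadjusted p under 0.05 in either direction.

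Cxcl12 had 341, 366 and 488 CPM at 0 h, 289, 239 and 261 at 2 h, 374, 404 and 396 at 8 h, 254, 293 and 221 at 12 h, 288, 225 and 281 at 18 h, and 280.4, 257 and 274 at 22 h. All libraries at 0 and 8 h lay above all at the other 4 times (joint adjusted p 0.0023, late log2 fold change -0.36, adjusted p 0.0140). Ccl9 had 49.5, 59.5 and 53.96 CPM at 0 h, 36.3, 57.7 and 45.4 at 2 h, 29.2, 31.2 and 29.7 at 8 h, 36.6, 32.3 and 24.7 at 12 h, 40.3, 71.7 and 45.8 at 18 h, and 50.1, 42.6 and 40.6 at 22 h. Its values at 8 and 12 h lay within 24.7 to 36.6 CPM, and the log2 fold changes over 0 h were -0.95 and -0.84 (joint adjusted p 0.0101). Ccl6 had 2.35, 2.67 and 4.36 CPM at 0 h, 3.10, 8.75 and 5.59 at 2 h, 2.70, 2.02 and 3.41 at 8 h, 1.55, 1.90 and 1.27 at 12 h, 0.779, 0.718 and 2.08 at 18 h, and 1.49, 2.23 and 3.56 at 22 h. The 2 highest were at 2 h and the 2 lowest at 18 h, and 5 of 6 late libraries lay below every early one (log2 fold change -1.38, SE 0.31, adjusted p 0.0060, joint adjusted p 0.0102). Ccl27a had 8.92, 7.76 and 10.5 CPM at 0 h, 11.2, 6.34 and 8.56 at 2 h, 17.95, 20.7 and 16.1 at 8 h, 12.04, 19.04 and 17.7 at 12 h, 20.2, 11.9 and 16.1 at 18 h, and 9.89, 14.8 and 15.3 at 22 h. Of the 6 late libraries 5 were above every early one, and all 3 libraries at 8 h were too (log2 fold change 0.65, SE 0.17, adjusted p 0.0153, joint adjusted p 0.0182). Cxcl1 had 14.6, 5.58 and 10.6 CPM at 0 h, 7.26, 81.5 and 76.003 at 2 h, 12.1, 13.5 and 9.86 at 8 h, 13.6, 16.5 and 9.92 at 12 h, 20.4, 30.6 and 16.04 at 18 h, and 4.79, 8.81 and 8.02 at 22 h. Replicates 2 and 3 at 2 h stood above every other library, while replicate 1 of that time did not (joint adjusted p 0.0323, log2 fold change of 2 h over 0 h 2.42).

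In LIV the early libraries were run in lane 1 and the late ones in lane 2, with only the 3 libraries at 8 h spanning both. Lane and time are again separated by those 3 alone and cannot be told apart among the other times. Joint adjusted p-values ran from 2.51e-09 to 0.1908 over 27 alternatives for Cxcl12, past 0.05 without all replicates 2 (0.1908), and from 2.09e-09 to 0.1995 over 27 alternatives for Ccl9, past 0.05 without all replicates 2 (0.1995) and without all replicates 3 (0.1356). For Ccl27a they ran from 2.32e-06 to 0.3598 over 27 alternatives, past 0.05 with lane as a covariate (0.0900), without all replicates 2 (0.3598) and without all replicates 3 (0.1172). Ccl6 gave values from 1.09e-07 to 0.3817 over 27 alternatives in the joint test, past 0.05 with lane as a covariate (0.1098), without all replicates 2 (0.3817) and without 2 h replicate 2 (0.0647), and from 3.18e-05 to 0.1799 over 28 alternatives in the late comparison, past it with lane as a covariate (log2 fold change -2.0, adjusted p 0.1691), against 0 h alone (log2 fold change -0.93, adjusted p 0.1215) and without all replicates 2 (log2 fold change -1.09, adjusted p 0.1799). For Cxcl1 the adjusted p ran from 8.49e-81 to 0.5122 over 27 alternatives and passed 0.05 with replicate number as a block (0.0744), with lane as a covariate (0.1301), without all replicates 2 (0.5122), without all replicates 3 (0.3686), without 0 h replicate 2 (0.0546), without 2 h replicate 2 (0.1340), without 2 h replicate 3 (0.1085), without 8 h replicate 1 (0.0548), without 8 h replicate 2 (0.0513), without 12 h replicate 2 (0.0551), without 12 h replicate 3 (0.0533), without 22 h replicate 1 (0.0557), without 22 h replicate 2 (0.0554) and without 22 h replicate 3 (0.0536). Without 2 h replicate 2 the joint test called 3 of the 17 genes, and without 2 h replicate 1 the late comparison called 2 lower. Neutrophil markers in LIV (2 of 6 tested) summed to 0.357, 14.4 and 3.54 CPM in the 3 libraries at 2 h, with a median of 1.34 over all 18 and Ngp, Ltf, Camp and Mpo at a median of 0. Kupffer cell markers (4 of 4 tested, 0 called) summed to 98.3 to 205 CPM early (median 130.8) and 128 to 181 late (median 142.7), led by Clec4f (median 104.6 CPM). Their part in the levels of Cxcl1, Ccl6 and Ccl9 was not tested.

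In iBAT, Ccl5 and the eotaxin Ccl24 rose late, Ccl27a was higher and Cxcl12 lower, most of all at 22 h. The joint test called 4 of 20 genes (28.98% of all genes) and DESeq2 8. In the late comparison 2 were called higher (all genes: 4.742%) and 0 lower (all genes: 7.943%), with DESeq2 calling 4 and 0 and 8 having an unadjusted p under 0.05 by edgeR. Ccl5 had 0.678, 0.793 and 0.104 CPM at 0 h, 0.648, 0.471 and 0.573 at 2 h, 0.112, 0.371 and 0.766 at 8 h, 0.872, 0.753 and 0.980 at 12 h, 0.755, 1.18 and 0.975 at 18 h, and 13.6 and 2.38 at 22 h. Both libraries at 22 h lay above all others, 22 h replicate 2 by far, and 4 of 5 late libraries lay above every early one (log2 fold change 2.19, SE 0.53, adjusted p 0.0052, joint adjusted p 0.0022). Ccl24 had 0.246, 0.198 and 0.418 CPM at 0 h, 0.519, 1.18 and 0.860 at 2 h, 0.674, 0.743 and 0.868 at 8 h, 1.16, 1.22 and 3.16 at 12 h, 1.19, 0.858 and 0.877 at 18 h, and 1.27 and 1.70 at 22 h. The 3 libraries at 0 h were the lowest, 12 h replicate 3 the highest, and early and late overlapped (log2 fold change 1.25, SE 0.42, adjusted p 0.0263, joint adjusted p 0.0306). Ccl27a had 6.16, 5.81 and 6.996 CPM at 0 h, 7.91, 7.66 and 8.17 at 2 h, 9.10, 9.59 and 10.2 at 8 h, 9.11, 7.06 and 13.1 at 12 h, 8.60, 8.36 and 7.70 at 18 h, and 30.7 and 12.7 at 22 h. The value of 22 h replicate 2 was the highest, and 4 of 5 late libraries stood above every early one (log2 fold change 0.85, SE 0.21, adjusted p 0.0063, joint adjusted p 0.0073). Cxcl12 had 131.998, 184 and 89.6 CPM at 0 h, 110.8, 108 and 115.3 at 2 h, 97.8, 106 and 99.3 at 8 h, 89.4, 112.2 and 69.2 at 12 h, 117.7, 108 and 109.8 at 18 h, and 58.6 and 63.03 at 22 h. The libraries at 22 h were the lowest, and those at 18 h lay within the early range (log2 fold change -0.64, SE 0.18, adjusted p 0.0111, joint adjusted p 0.0217).

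These calls rested on few libraries. Without 22 h replicate 2 none of the 4 was called in the joint test, and Ccl5 then fell under the filter on low counts. It did so too without 18 h replicate 2, 22 h replicate 3, all replicates 2 or all replicates 3, and with the stricter filter, and these fits enter no range of Ccl5. In an alternative chosen after seeing the data, without that library and without the filter, Ccl5 had a late log2 fold change of 1.32 (adjusted p 0.1138, range from 4.26e-04 to 0.1138 over 22 alternatives) and a joint adjusted p of 0.4055 (from 2.53e-08 to 0.4055 over 21 alternatives). The joint adjusted p of Ccl27a ran from 7.66e-05 to 0.5675 over 27 alternatives and passed 0.05 without filter and 22 h replicate 2 together (0.5675), without all replicates 1 (0.0747), without all replicates 2 (0.2819) and without 22 h replicate 2 (0.2092). Cxcl12 gave values from 0.0016 to 0.2543 over 27 alternatives, past 0.05 without filter and 22 h replicate 2 together (0.0663), without all replicates 1 (0.1801), without all replicates 2 (0.2543), without 0 h replicate 1 (0.0536), without 0 h replicate 2 (0.0514), without 22 h replicate 2 (0.1120) and without 22 h replicate 3 (0.0591). Ccl24 gave from 0.0143 to 0.1701 over 26 alternatives in the joint test, past 0.05 without the filter (0.0953), with the 5 libraries of low total kept in (0.1287), without filter and 22 h replicate 2 together (0.0851), without all replicates 1 (0.1657), without all replicates 2 (0.1492), without all replicates 3 (0.1701), without 0 h replicate 1 (0.0794), without 0 h replicate 2 (0.0910), without 8 h replicate 2 (0.0553), without 8 h replicate 3 (0.0506) and without 22 h replicate 2 (0.0651), and from 0.0126 to 0.1832 over 27 alternatives in the late comparison, past it without the filter (log2 fold change 1.23, adjusted p 0.0903), with the 5 libraries of low total kept in (log2 fold change 1.02, adjusted p 0.1245), without filter and 22 h replicate 2 together (log2 fold change 1.31, adjusted p 0.0822), without all replicates 1 (log2 fold change 1.03, adjusted p 0.1832), without all replicates 2 (log2 fold change 1.46, adjusted p 0.0929), without all replicates 3 (log2 fold change 1.29, adjusted p 0.0811), without 0 h replicate 2 (log2 fold change 1.15, adjusted p 0.0655), without 2 h replicate 1 (log2 fold change 1.12, adjusted p 0.0554), without 18 h replicate 1 (log2 fold change 1.15, adjusted p 0.0598) and without 22 h replicate 3 (log2 fold change 1.14, adjusted p 0.0830). Against 0 h alone its late log2 fold change was 1.97. The joint count was 2 without 0 h replicate 2 and 8 without 0 h replicate 3, the count of higher genes 1 without 0 h replicate 2, 2 h replicate 1, 18 h replicate 1, 18 h replicate 2 or 22 h replicate 2 and 5 without 0 h replicate 3, and the count of lower genes 1 without 22 h replicate 3.

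Cell type markers in iBAT were uneven. T cell markers summed to 1.54, 0.925 and 2.19 CPM at 0 h, 2.07, 0.943 and 1.58 at 2 h, 1.24, 1.55 and 2.45 at 8 h, 2.52, 1.04 and 7.52 at 12 h, 2.34, 4.40 and 2.24 at 18 h, and 23.4 and 2.15 at 22 h, led by Lck (median 0.648 CPM), with 2 of 6 tested and 1 called higher late. The library with the most Ccl5 had the highest sum, and the other late sums were 4.40 at most. Endothelial markers summed to 468 to 858 CPM early (median 544) and 176 to 481 late (median 453), with 3 of 4 called in the joint test, 2 of them lower late, Cdh5 (median 152.5 CPM) leading and the lowest sum in 22 h replicate 2. Macrophage markers (1 of 6 called, higher late) summed to 16.3 to 81.1 CPM early (median 66.2) and 68.4 to 77.7 late (median 74.5), the late sums lying within the early range, led by C1qa (median 15.4 CPM). No gene of these 3 lists was at 0 in all libraries, and their part in the changes of Ccl5, Ccl24 and Cxcl12 was not tested. The libraries were spread over 6 lanes, of which 2 held both early and late libraries, and a fit with lane could not be made. At 22 h the retained libraries were in lanes 1 (replicate 2) and 3 (replicate 3), which held no other retained iBAT library. Lane and 22 h can therefore not be told apart in iBAT. By the numbers in their names the libraries also fall into series. Replicate 2 at 22 h was the only retained iBAT library of its number series. Its levels and the series cannot be told apart, and the part of the series was not tested.

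In STM, 3 ligands fell in the late comparison, the epithelial Ccl28 and Cxcl17 and the interferon-induced Cxcl9. They were 3 of 22 genes tested, where 3.390% of all genes were lower, and DESeq2 also called 3. None was called higher by edgeR (3.999% of all genes) or DESeq2, and 6 had an unadjusted p under 0.05 in either direction. The joint test called 0 by edgeR (6.554% of all genes), with 4 at an unadjusted p under 0.05, and 4 by DESeq2. Ccl28 had 4.23, 3.54 and 4.46 CPM at 0 h, 3.90, 2.54 and 3.68 at 2 h, 4.90, 1.77 and 3.85 at 8 h, 2.51 and 0 at 12 h, 0.932, 0.826 and 0.316 at 18 h, and 2.18, 0.916 and 0.292 at 22 h. All 6 late libraries lay below all 6 early ones (log2 fold change -2.10, SE 0.57, adjusted p 0.0164). Cxcl17 had 62.9, 33.3 and 77.5 CPM at 0 h, 50.8, 32.0 and 55.9 at 2 h, 52.4, 42.4 and 35.5 at 8 h, 42.6 and 48.3 at 12 h, 13.05, 44.9 and 11.6 at 18 h, and 26.5, 28.4 and 8.46 at 22 h. The lowest were 18 h replicates 1 and 3 and 22 h replicate 3, and 18 h replicate 2 lay within the early range (log2 fold change -1.29, SE 0.41, adjusted p 0.0367). Cxcl9 had few counts, with 1.32, 0.332 and 1.61 CPM at 0 h, 0.354, 0.291 and 1.23 at 2 h, 1.17, 0.835 and 1.18 at 8 h, 0.836 and 0.550 at 12 h, 0, 0 and 0.105 at 18 h, and 0, 0.229 and 0.730 at 22 h. Of the late libraries 3 had none, and 22 h replicate 3 lay within the early range (log2 fold change -2.79, SE 0.81, adjusted p 0.0208). Ccl27a, with an adjusted p under 0.05 and a fold change under the threshold, had 3.83, 3.65 and 3.97 CPM at 0 h, 3.19, 3.92 and 2.80 at 2 h, 2.66, 2.50 and 3.78 at 8 h, 3.10 and 4.40 at 12 h, 11.4, 5.51 and 8.22 at 18 h, and 9.30, 5.15 and 4.52 at 22 h. All 6 late libraries were above all 6 early ones (log2 fold change 0.98, SE 0.27, adjusted p 0.0153).

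In STM the early libraries were run in lane 5 and the late ones in lane 6, and here too only the 8 h libraries spanned both lanes, so that lane and time cannot be told apart without them. Adjusted p-values ran from 0.0013 to 0.90 over 28 alternatives for Ccl28, past 0.05 with lane as a covariate (log2 fold change -2.23, adjusted p 0.90), without all replicates 1 (log2 fold change -2.65, adjusted p 0.0520) and without all replicates 3 (log2 fold change -1.56, adjusted p 0.2272). For Cxcl17 they ran from 0.0033 to 0.9693 over 28 alternatives, past 0.05 without the filter (log2 fold change -1.31, adjusted p 0.0762), with the 5 libraries of low total kept in (log2 fold change -1.29, adjusted p 0.0593), with lane as a covariate (log2 fold change -0.75, adjusted p 0.9693), without all replicates 1 (log2 fold change -1.22, adjusted p 0.2038), without all replicates 3 (log2 fold change -0.65, adjusted p 0.3319), without 0 h replicate 1 (log2 fold change -1.26, adjusted p 0.0599), without 0 h replicate 3 (log2 fold change -1.12, adjusted p 0.0840), without 2 h replicate 1 (log2 fold change -1.26, adjusted p 0.0751), without 2 h replicate 3 (log2 fold change -1.20, adjusted p 0.0796), without 18 h replicate 1 (log2 fold change -1.14, adjusted p 0.0817), without 18 h replicate 3 (log2 fold change -1.12, adjusted p 0.0777) and without 22 h replicate 3 (log2 fold change -1.08, adjusted p 0.0580). The log2 fold change of Cxcl17 was -2.11 without all replicates 2. Cxcl9 gave from 0.0070 to 0.90 over 26 alternatives, past 0.05 with lane as a covariate (log2 fold change -2.92, adjusted p 0.90), without all replicates 1 (log2 fold change -2.35, adjusted p 0.1867), without 2 h replicate 3 (log2 fold change -2.33, adjusted p 0.0718) and without 18 h replicate 1 (log2 fold change -2.58, adjusted p 0.0506). The log2 fold change of Cxcl9 was -3.75 without 18 h replicate 3 and -3.38 without 22 h replicate 3. The count of lower genes was 1 without 2 h replicate 3 or 18 h replicate 1. That of higher genes was 1 without 0 h replicate 3, 2 h replicate 2, 18 h replicate 2, 22 h replicate 2 or 22 h replicate 3, and the joint count was 1 without 0 h replicate 2, 12 h replicate 1 or 22 h replicate 3.

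Gastric epithelial markers (3 of 4 lower late) summed to 10457 to 15204 CPM early (median 12520.4) and 2984 to 10658 late (median 4839), led by Atp4a (median 4366 CPM), and by library were 12468, 10457 and 12430.2 CPM at 0 h, 13291, 12573 and 15204 at 2 h, 14354, 15579 and 11216 at 8 h, 10988 and 6201 at 12 h, 4059, 5619 and 4039.5 at 18 h, and 8902, 10658 and 2984 at 22 h. The 3 libraries with the lowest Cxcl17, 18 h replicates 1 and 3 and 22 h replicate 3, had the lowest sums at their times. Keratinocyte markers, which the mouse forestomach also expresses, summed to 1461 to 6371 CPM early (median 2812) and 230.5 to 9819.9 late (median 7120.3), and skeletal muscle markers to 191.1 to 1434 CPM early (median 1070.5) and 1843 to 3800.4 late (median 2137), with 0 of 4 called in either list. No marker of these lists was at 0 in all libraries, and their part in the falls of Ccl28, Cxcl17 and Cxcl9 was not tested.

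In the other 5 organs no gene of the family was called over time by edgeR. In BRN 0 of 13 genes were called in the joint test (all genes: 0.005971%; 0 with an unadjusted p under 0.05 and 0 by DESeq2) and 0 late (all genes: 1.517% higher and 0.4538% lower), where 4 had an unadjusted p under 0.05 and DESeq2 called 1 lower. That gene was Ccl28, with 3.45, 3.90 and 3.27 CPM at 0 h, 3.55, 3.48 and 2.84 at 2 h, 2.23 and 3.24 at 8 h, 0.848, 3.81 and 7.54 at 12 h, 0 and 1.003 at 18 h, and 0.230, 2.05 and 2.45 at 22 h. All 5 late libraries lay below all 6 early ones (log2 fold change -1.71, SE 0.69, adjusted p 0.1187), and the gene was singled out here after its values were seen. All 5 late BRN libraries were of the same number series. Among the early ones only 2 h replicates 1 and 2 (3.55 and 3.48 CPM) shared it. The early libraries were run in lanes 1 to 5 and the late ones in lanes 1, 2 and 4. Series and time can thus not be fully told apart in BRN, and the part of the series was not tested. In CBL 0 of 12 were called in the joint test (all genes: 2.986%), with 3 at an unadjusted p under 0.05. DESeq2 called 3 there, Ccl27a, Cxcl12 and Cxcl14. Late, 0 were called in CBL by either tool (all genes: 0.01252% higher and 0.1189% lower), with 5 at an unadjusted p under 0.05. In BST 0 of 12 were called by either tool in the joint test (all genes: 0.1072%; 2 with an unadjusted p under 0.05) and late (all genes: 0% higher and 0% lower; 2 with an unadjusted p under 0.05).

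Both white depots, in which most of the family was expressed, had wide spreads between mice. In pgWAT the early libraries were run in lanes 5 and 7 and the late ones in lane 6. Lane and time cannot be told apart among these libraries, and their median totals were 12026790 early and 6698538 late. In pgWAT 0 of 33 genes were called in the joint test by either tool (all genes: 0%; 3 with an unadjusted p under 0.05) and 0 late (all genes: 0% higher and 0.006093% lower; 2 with an unadjusted p under 0.05), where DESeq2 called 1 lower. In psWAT 0 of 42 were called in the joint test (all genes: 0%; 3 with an unadjusted p under 0.05; 2 by DESeq2) and 0 late by either tool (all genes: 0% higher and 0% lower; 0 with an unadjusted p under 0.05). Ccl5 in psWAT had 214, 398 and 251 CPM at 0 h, 493, 318 and 464 at 2 h, 38.4, 241 and 104.6 at 8 h, 469.5, 406 and 56.4 at 12 h, 242, 258 and 38.3 at 18 h, and 481 and 179 at 22 h. The lowest were 18 h replicate 3, 8 h replicate 1 and 12 h replicate 3, and the highest, with 493 CPM, was 2 h replicate 1. Cxcl13 had 66.7, 80.6 and 208 CPM at 0 h, 217, 115.3 and 270.3 at 2 h, 7.81, 162.02 and 59.5 at 8 h, 172, 134.1 and 10.4 at 12 h, 174, 166.7 and 8.36 at 18 h, and 132.2 and 25.4 at 22 h. Its low libraries, 8 h replicate 1, 12 h replicate 3 and 18 h replicate 3, were also low in Ccl5.

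Over all tested members the median late log2 fold change, with that over all genes tested in brackets, was -0.11 (0.00) in OB, 0.14 (-0.07) in BRN, -0.18 (-0.01) in CBL, -0.15 (0.00) in BST and -0.14 (0.01) in STM. It was -0.19 (0.01) in LIV, 0.29 (-0.08) in iBAT, -0.17 (0.05) in pgWAT and -0.15 (0.04) in psWAT. Ccl28 and Cxcl12 had negative late values in each organ where they were called, and Ccl27a positive ones. Whether these differ between organs was not tested.

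Other genes of the pathway showed few changes. The list held 3 chemokines of other symbols, 7 atypical or related receptors, 16 genes of receptor signalling and 10 inducers. None of the 3 chemokines was called in any organ by edgeR. Of the receptors only Ackr1, which binds many chemokines without G protein signalling, was called, in the joint test of CBL (55.4 to 87.3 CPM, adjusted p 0.0321). Over 18 fits without 1 library this p ran from 0.0070 to 0.1005, past 0.05 without 0 h replicate 1, any library at 12 h, 18 h replicates 1 or 2, or 22 h replicate 2. Of the signalling genes 5 of 15 tested were called in the joint test of iBAT, where 28.98% of all genes were. There Grk3, a kinase that turns receptors off, fell late, with 101.4 to 184 CPM early (median 119.5) and 32.0 to 110.5 late (median 90.1) (log2 fold change -1.14, SE 0.22, adjusted p 0.0016). Grk5, Arrb1 (beta-arrestin 1), the G protein subunit Gnai3 and the Rac regulator Elmo1 were the others in iBAT, with late log2 fold changes of -0.60, -0.81, -0.80 and -0.93. All 5 had their lowest level in 22 h replicate 2, and without it only Grk3 was called (log2 fold change -1.04, adjusted p 0.0164, joint adjusted p 0.0491). Over 17 fits without 1 library the joint p of Gnai3 ran from 0.0018 to 0.1278 and that of Elmo1 from 0.0132 to 0.1156. That of Arrb1 ran from 5.74e-04 to 0.1830, past 0.05 also without any library at 2 h or 8 h replicate 3. Grk5 (0.0152 to 0.2116) lost its call in 11 of the 17, without 0 h replicate 1, any library at 2 or 8 h, 12 h replicate 3, 18 h replicates 1 or 3, or 22 h replicate 2.

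Few of these genes were called in the other organs. In LIV Gnai3 was called in the joint test (log2 fold change -0.35, adjusted p 0.0233), in OB Elmo1 (-0.06, 0.0201) and in STM Grk6 (-0.84, 0.0424), which had 56.3 to 68.5 CPM early (median 64.3) and 29.5 to 46.9 late (median 36.2). Leaving out single libraries ended the call of Gnai3 without 2 h replicate 2 (0.0763, range 0.0174 to 0.0763) and that of Elmo1 without 8 h replicate 1 or 3 (range 0.0043 to 0.1137). Grk6 (0.0198 to 0.1390) kept it in 7 of 17 fits and lost it without 0 h replicates 1 or 3, any library at 2 h, 8 h replicates 1 or 2, 12 h replicate 2, or 18 h replicates 1 or 3. In BRN, where number series and time cannot be fully told apart, Pik3r5, a regulatory subunit of PI3 kinase gamma, was called lower late. It had 2.53 to 4.55 CPM early (median 3.63) and 0 to 1.84 late (median 1.27). The log2 fold change was -2.0 (SE 0.56, adjusted p 0.0398). Over 16 fits without 1 library the p ran from 0.0058 to 0.1493, and the call was kept only without 12 h replicates 2 or 3, 18 h replicate 3 (log2 fold change -4.44) or 22 h replicate 3. The inducer Nfkbia, a target and inhibitor of NF-kB, was called in OB (joint adjusted p 0.0138) and STM (0.0333), where it had 22.6 to 43.7 CPM early (median 32.9) and 43.3 to 78.0 late (median 59.02) and a late log2 fold change of 0.74. Its call in STM (range 0.0160 to 0.1346) was lost without 0 h replicate 1, 2 h replicates 1 or 3, or 18 h replicates 1 or 3. The cytokine gene Tnf had 1.87 to 32.4 CPM (median 16.3) in psWAT and medians of 0.653 or less elsewhere.

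The family lies in clusters on the genome, here by their GRCm38 positions. The monocyte and eosinophil ligands Ccl2, Ccl7, Ccl11, Ccl12, Ccl8 and Ccl1 lie on chr11:82035571-82305690, and Ccl5, Ccl9, Ccl6, Ccl3 and Ccl4 on chr11:83525778-83664683. In the second of these clusters Ccl6 was highest in pgWAT, Ccl5 and Ccl4 in psWAT, and Ccl9 and Ccl3 in no organ. For Ccl9 the median was 113.3 CPM in pgWAT and 41.6 in LIV, with a fitted log2 fold change of 0.53 (adjusted p 0.1243). The homeostatic ligands Ccl27a, Ccl21b, Ccl27b, Ccl19 and Ccl21a lie on chr4:41769467-42773993, the neutrophil ligands Cxcl5, Cxcl3, Cxcl15, Cxcl1 and Cxcl2 on chr5:90759360-90905938, and Cxcl9, Cxcl10 and Cxcl11 on chr5:92321347-92365485. The 3 interferon-induced neighbours differed by organ, with Cxcl10 highest in psWAT, Cxcl11 in LIV and Cxcl9 in none.

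Promoter sequences from RefSeq (GRCm38.p6, 250 bases before to 50 after the start) were found for 39 of the 54 genes, 46 promoters in all. On either strand an NF-kB site (GGG, 5 of any base, CC) occurred in 26 of the 46 and in 50.8% of 32851 promoters of all genes, TATAAA in 12 and 13.6%, the interferon-stimulated response element (GAAA, 2 of any base, GAAA) in 3 (Ccl19, Cxcl10 and Cxcl14) and 3.44%, and the E-box CACGTG in 2 and 7.15%. The forkhead letters TGTTTAC (3.65% of all promoters) and the cAMP response element TGACGTCA (1.79%) occurred in 0. The promoters of the 3 genes called over time in more than 1 organ are shown, on the strand of the gene, with matches to the NF-kB letters in capitals. Cxcl12 (chr6:117168285-117168584, plus strand) was called in OB, LIV and iBAT, Ccl28 (chr13:119623569-119623868, plus strand) in OB and STM, and Ccl27a (chr4:41770163-41770462, minus strand, the first of its promoters) in LIV and iBAT.
Cxcl12: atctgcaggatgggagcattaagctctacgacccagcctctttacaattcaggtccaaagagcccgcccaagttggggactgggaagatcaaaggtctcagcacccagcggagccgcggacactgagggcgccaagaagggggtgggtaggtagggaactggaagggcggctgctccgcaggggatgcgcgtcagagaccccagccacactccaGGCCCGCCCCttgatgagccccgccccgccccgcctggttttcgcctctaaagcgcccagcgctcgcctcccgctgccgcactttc
Ccl28: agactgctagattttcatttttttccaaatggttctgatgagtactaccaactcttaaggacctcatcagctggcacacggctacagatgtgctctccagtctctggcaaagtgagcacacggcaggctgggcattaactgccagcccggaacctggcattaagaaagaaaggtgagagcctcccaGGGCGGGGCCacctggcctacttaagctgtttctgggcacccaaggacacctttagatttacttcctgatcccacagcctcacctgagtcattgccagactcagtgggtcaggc
Ccl27a: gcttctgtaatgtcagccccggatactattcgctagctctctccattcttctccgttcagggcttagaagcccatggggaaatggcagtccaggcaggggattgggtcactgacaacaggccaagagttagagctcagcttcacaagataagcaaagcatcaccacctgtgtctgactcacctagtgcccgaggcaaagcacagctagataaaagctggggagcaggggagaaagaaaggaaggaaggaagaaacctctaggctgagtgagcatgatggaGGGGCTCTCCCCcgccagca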

How the data were processed

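Libraries of polyadenylated RNA were sequenced, and the authors aligned reads to GRCm38.p5 with TopHat2 2.1.1, kept those mapping to 1 place and counted them per gene with HTSeq 0.9.1 (versions from the submitters' notes). The values are raw counts per gene as deposited by the authors for 162 libraries. CPM is the count over the library total. Left out of all comparisons were the 5 libraries that the study left out for low totals. Their log2 totals fell over 2 SD short of their organ's mean, while on the raw scale 1 of the 5 did.

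A gene entered an organ's fit if 3 or more libraries reached the CPM that 10 counts give at the median total. edgeR 4.0.16 in R 4.3.3 fitted all genes (TMM factors, robust quasi-likelihood), in 1 fit per organ for time and in 1 fit of 157 libraries with mouse as a block for organ, and p was adjusted over all genes tested by the Benjamini-Hochberg procedure. SE is that of the log2 fold change. Alternatives were DESeq2 1.42.0, RLE factors, no or a stricter filter, all 162 libraries, replicate number as a block, lane as a covariate, no fold threshold, 0 h alone as the early group, and fits without each replicate number or each library. The code was tested on simulated data. Python 3.11.15, pandas 2.3.3, scipy 1.17.1 and matplotlib 3.10.9 made the tables and figures.

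Clusters join members within 500000.0 bases. Gene lengths and coordinates come from Gencode release M21, while the authors counted on M16, and 53 of the 54 genes had a gene model. Genes named are those called in any test, the 3 with the highest mean level per kb in each organ, ligand and receptor partners, and members at 3 counts or fewer throughout. The strand setting of the counting is not stated. Exon bases shared with a gene on the other strand make up 18.3% in Cxcl16, 18.8% in Ccr9 and 5.91% in Cxcl10. Reads that fit Ccl21a, Ccl21b and Ccl21c, or Ccl27a and Ccl27b, alike are lost. Members and lists were chosen with earlier results of these data known. Floors and intervals cover counting error only.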

Additional observations from a re-analysis of the deposited data

Results flagged for a closer look

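The 5 libraries that the comparisons leave out for their low totals still held counts of the family. A level is given where the 95% Poisson interval of its count, in brackets as CPM, lay above all 3 libraries of that organ at 0 h, and 23 of the 81 values over 3 counts did. Of the 23 levels 17 were also above every retained library of their organ at any time, 14 of them with their whole interval. Not above every retained library were 6 levels, namely Cx3cr1 and Cxcl14 in STM, Ccl11 and Ccl5 in iBAT, and Ccl19 and Cxcr4 in psWAT. Intervals below all 3 libraries at 0 h were found too, 20 in all, such as Cx3cl1 in BRN 8 h replicate 3 (14 counts) and Cxcl14 in BRN 18 h replicate 1 (6 counts), and they are not listed. Single values were not tested against the other libraries, and whether low totals take part in these levels was not tested either. The share of all genes with such levels was not computed, so these numbers cannot be read as particular to the family. BRN 8 h replicate 3, of 130701 counts in all, had Ccl27a 160.7 CPM (99.5 to 246) against 34.3 to 53.0 at 0 h. BRN 18 h replicate 1, of 279848 counts in all, had Ccl27a 89.3 CPM (57.8 to 131.9) against 34.3 to 53.0 and Cxcl12 75.04 CPM (46.5 to 114.7) against 31.8 to 35.4 at 0 h. STM 12 h replicate 3, of 4590060 counts in all, had Ccl11 26.4 CPM (21.9 to 31.5) against 12.8 to 21.3, Ccl17 1.96 CPM (0.897 to 3.72) against 0, Ccl2 3.27 CPM (1.83 to 5.39) against 0 to 0.553 and Ccl22 3.27 CPM (1.83 to 5.39) against 0.221 to 0.661 at 0 h. The same library had Ccl27a 22.9 CPM (18.7 to 27.7) against 3.65 to 3.97, Ccl4 3.27 CPM (1.83 to 5.39) against 0 to 0.396, Ccl7 3.92 CPM (2.32 to 6.20) against 0.248 to 1.06 and Cx3cr1 12.9 CPM (9.78 to 16.6) against 3.96 to 5.09 at 0 h. It further had Cxcl14 8.93 CPM (6.41 to 12.1) against 3.21 to 5.95 and Cxcr3 2.61 CPM (1.35 to 4.57) against 0 to 0.124 at 0 h. iBAT 22 h replicate 1, of 2700482 counts in all, had Ccl11 19.6 CPM (14.7 to 25.7) against 9.25 to 13.3, Ccl27a 37.03 CPM (30.1 to 45.04) against 5.81 to 6.996, Ccl4 10.7 CPM (7.19 to 15.4) against 0 to 0.104 and Ccl5 2.59 CPM (1.04 to 5.34) against 0.104 to 0.793 at 0 h. The same library had Ccl7 4.07 CPM (2.03 to 7.29) against 0 to 0.940, Ccr1 3.70 CPM (1.78 to 6.81) against 0.308 to 0.462 and Cxcr6 3.33 CPM (1.52 to 6.33) against 0.209 to 0.462 at 0 h. psWAT 22 h replicate 2, of 2944552 counts in all, had Ccl19 12.9 CPM (9.13 to 17.7) against 1.74 to 5.53, Cx3cr1 44.1 CPM (36.9 to 52.4) against 9.30 to 17.9 and Cxcr4 138.9 CPM (125.8 to 153.04) against 44.6 to 91.0 at 0 h.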

How the results depend on the processing

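Of 591 recomputed counts of called genes, 519 equalled the reported count, a 0 that stayed 0 included, or lay within 1.5 times of it. Many reported counts were 0, so the 519 do not measure how stable the others were. Of 781 recomputed values of named genes 682 kept the call and 99 lost it. No log2 fold change reversed, and joint tests have no direction. Cxcl9 in STM, and Ccl5 and Ccl24 in iBAT, were not tested with the stricter filter, nor Cxcl9 without all replicates 3 or Ccl20 without all replicates 1. DESeq2 gave joint counts of 3 in CBL, 4 in STM, 8 in iBAT and 2 in psWAT, late counts of 1 lower in BRN, 1 lower in pgWAT and 4 higher in iBAT. Without a filter, more genes being tested, the joint counts were 5 in OB, 3 in CBL, 1 in STM and 8 in LIV, and the late counts 1 higher and 2 lower in LIV and 1 higher in iBAT. A stricter filter, with fewer genes tested, gave 2 in the joint test of iBAT and 0 higher late. Lane as a covariate gave joint counts of 1 in OB and 2 in LIV and late counts of 0 lower in STM and 0 lower in LIV. Replicate number as a block gave 1 in the joint test of CBL and 4 higher late in iBAT. The numbers did not pair mice across times (mean correlation of same-numbered residuals from -0.07 in psWAT to 0.157 in iBAT, where other pairs had -0.079). Dropping the fold threshold, which by construction adds calls, gave 2 lower in OB, 1 higher in STM, 1 higher and 2 lower in LIV, and 5 higher and 1 lower in iBAT. Keeping the 5 libraries of low total gave 1 in the joint test of psWAT. Without the filter and without iBAT 22 h replicate 2, chosen after seeing the data, iBAT had 0 in the joint test and 0 higher late. Elsewhere the cause was not tested.

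Over fits without 1 replicate number or 1 library, the joint count ran from 0 to 4 in OB, 0 to 2 in BRN, 0 to 2 in CBL, 0 to 1 in STM, 0 to 6 in LIV, 0 to 8 in iBAT and 0 to 2 in psWAT. The late counts ran from 0 to 2 lower in BRN, 0 to 1 higher and 0 to 4 lower in STM, 0 to 2 lower in LIV, and 0 to 5 higher and 0 to 1 lower in iBAT. The count of genes highest in iBAT ran from 0 to 1. A time left with 1 library was assumed to vary like the others. Genes at or near 3 counts, among them Cxcl9 in STM and Ccl24 in iBAT, are limited by depth. Fits without single libraries were run for the family in OB, STM, LIV and iBAT, where genes had been called, and for other called genes of the pathway, chosen after seeing the data.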

Other observations

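Cxcl15, a lung and epithelial CXC ligand, was tested in no organ, yet psWAT 18 h replicate 2 had it at 12.0 CPM and 18 h replicate 3 at 8.65 CPM, 59 counts. No other library had more than 3 counts. Cxcl2, a neutrophil attractant, was highest in psWAT 12 h replicate 3, with 33 counts (5.19 CPM), and was at 0 in 100 libraries. The psWAT library 12 h replicate 3 also held neuronal transcripts, 4 markers summing to 3710.1 CPM. Pf4, a platelet and macrophage CXC chemokine outside the symbols chosen, had 13.6 to 84.1 CPM (median 56.6) in pgWAT and 3.03 to 24.6 CPM (median 8.60) in psWAT. Ppbp had 0.121 to 2.88 CPM (median 0.822) in pgWAT and 0 to 21.1 CPM (median 0.291) in psWAT. Cmklr1, a related receptor of macrophages and adipocytes, had 15.3 to 216 CPM (median 104.3) in pgWAT. Ackr4, which removes homeostatic chemokines, had 4.12 to 20.1 CPM (median 13.9) in pgWAT and 0.0953 to 0.891 CPM (median 0.279) in OB.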
